A study of Mus musculus with 6 samples.

Results

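Progenitors of megakaryocytes, the marrow cells from which platelets form, were taken from wild-type mice and profiled after 3 days of culture in thrombopoietin. They were represented by 3 arrays of the 6 in the series, chosen by the genotype label SRF wt alone. The mice were C57BL/6, and cells with mature lineage markers were removed from their marrow. The rest spent a night with thrombopoietin and stem cell factor, were sorted as CD41+ and c-kit+, and were then cultured in thrombopoietin. The design text places the animals in a PF4-Cre/SRF colony, where a Pf4 promoter drives Cre recombinase in the megakaryocyte lineage. Whether the wild-type animals carried the Cre transgene is not given in the sources used here, nor is which animal gave which array. Technical spread and spread between animals can therefore not be told apart among the 3 arrays by their labels, and neither was tested. The other 3 arrays, from Srf knockout cells, served only to set a common intensity scale and are not compared here.

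Thrombopoietin is the cytokine that drives progenitors to become megakaryocytes. These cells replicate their DNA without dividing, become polyploid, load granules with proteins for release by platelets, and build the membrane and cytoskeleton from which platelets are shed. Transcription factors of the GATA, ETS, RUNX and NF-E2 families switch on the platelet genes.

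All values below are log2 normalized intensities (log2 levels), and where 3 values follow each other they belong to wild-type replicates 1, 2 and 3 in that order. Detection means a detection p under 0.05, the authors' own measure of a probe against the negative control beads of its array. Detected probes numbered 9801, 10303 and 9986 on the 3 arrays. Over all probes of an array, detected or not, the median was 34 to 35 beads per probe. Among probes detected on all 3 arrays, the median standard error over beads was 4.55% to 5.16% of the raw intensity. Between any pair of the arrays, the same raw value occurred for at most 1 probe. Replicate 1 stood apart from replicates 2 and 3: most markers of neutrophil granules, those of mast cells and basophils that were detected at all, and a Y-linked gene were lower there than on replicates 2 and 3, and several were not detected there. Results that this touches are given array by array.

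Of 24611 probes, 8917 were detected on all 3 arrays, which is 36.2%, and 13330 were detected on none, which is 54.2%. A further 2364 were detected on 1 or 2 arrays. Counted by gene, with a gene taken as detected if any of its probes was, 6589 of 15967 genes (41.3%) were detected on all 3 arrays, 7864 (49.3%) on none and 1514 in between. The brightest 25% of the probes detected on all 3 arrays, by mean log2 level, is called abundant (2229 probes), the middle part moderate (4459 probes) and the lowest 25% dim (2229 probes). The abundant class began at 10.84, and the dim class lay under 7.80. Lxn was the last probe inside the abundant class (10.55, 11.11 and 10.87) and Zcchc8 the first outside (10.93, 10.76 and 10.84). The classes describe the signal of a probe, which also depends on the probe itself, so that levels of different genes are not ranked as amounts of transcript. At least 1 abundant probe was found for 1805 genes (11.3%), and 3368 further genes were moderate and 1416 dim.

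**Figure D1:**
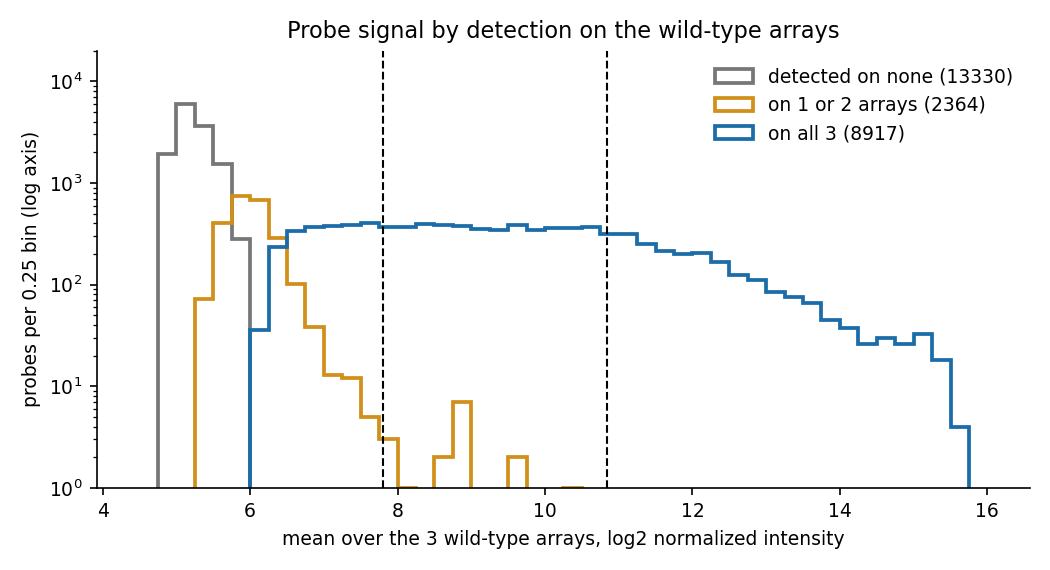
Number of probes (log axis) against the mean log2 normalized intensity over the 3 wild-type arrays, in bins of 0.25, with 1 outline for the 13330 probes detected on none, the 2364 on 1 or 2 arrays and the 8917 on all 3. The dashed lines mark the lower limits of the moderate (7.80) and abundant (10.84) classes, and undetected probes lie at the low end of the axis.

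Among probes detected on all 3 arrays, agreement was closest for bright ones. The median SD over the 3 arrays was 0.14 in the abundant class, 0.20 in the moderate class and 0.28 in the dim class. A range of 1 or more was seen for 43 abundant probes (1.93%), 290 moderate probes (6.5%) and 286 dim probes (12.8%).

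The defining megakaryocyte genes were detected on every array, which matches the label of the cells. CD41 and c-kit chose the cells, so that detection of their genes is not a finding. Itga2b encodes CD41, the integrin subunit used in the sort, and its probe lay at 12.63, 12.58 and 12.43. Pf4, platelet factor 4, a chemokine of the alpha granule, lay at 14.88, 14.38 and 14.49. Ppbp, another chemokine stored in that granule, lay at 15.47, 15.47 and 15.06. Gp1bb, a subunit of the receptor for von Willebrand factor, lay at 12.12, 11.52 and 11.39, while its second probe lay at 6.35, 5.92 and 5.62 and was detected on 1 array. All 4 genes were abundant, and the 3 arrays lay within 0.73 of each other for each of them. The c-kit gene Kit, the stem cell factor receptor and the other sort marker, was lower on replicate 1 (10.15, 11.53 and 11.67). In bulk RNA, fewer cells of a type and less RNA per cell cannot be told apart.

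Most receptors of the platelet surface were detected. Of 29 genes on the array, 26 (89.7%) were detected on all 3 arrays, against 41.3% of all genes, and 18 were abundant. Their median level was 11.17, against 5.75 for all genes. F2r, which encodes a thrombin receptor, was among the 15 genes with the highest mean signal of all (15.47, 15.37 and 15.35). Its relatives F2rl2 and F2rl3, also thrombin-responsive receptors, were abundant as well (13.30, 13.05 and 12.77 for F2rl2). Array signal does not show which of these receptors platelets use. The subunits Gp5 (14.03, 13.93 and 13.91) and Gp9 (11.90, 11.73 and 11.61) of the von Willebrand factor receptor were abundant. Itgb3, the partner of CD41 in the fibrinogen receptor, was moderate (10.64, 10.25 and 10.31). The collagen receptor Gp6 was moderate (10.13, 9.17 and 9.30) and had the largest range in the group. Its signalling partner Fcer1g, an immunoreceptor chain, was abundant (13.66, 13.51 and 13.45). The tetraspanins Cd9 and Cd63 were abundant, Cd9 at 13.90, 14.11 and 14.06 and Cd63 at 13.95, 14.06 and 14.11. Detected on no array were 3 genes: the ADP receptor P2ry12 (5.43, 5.23 and 5.27), the scavenger receptor Cd36 (4.93, 5.10 and 5.13) and the junction molecule Jam3. The other ADP receptor, P2ry1, was abundant (11.79, 11.56 and 11.34). Gp1ba, Adra2a and Itga2 were not analysed here.

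Cargo of the alpha granule was detected for 14 of 18 genes (77.8%), 8 of them abundant, with a median of 10.53. Vwf, which tethers platelets to the vessel wall, lay at 13.04, 12.82 and 12.91. Timp3, an inhibitor of matrix proteases, lay at 14.38, 14.12 and 14.20. Srgn, the proteoglycan that packs granule proteins, lay at 12.29, 12.55 and 12.92. Selp, the adhesion molecule P-selectin of the granule membrane, was abundant (11.96, 11.54 and 11.09), as were Tgfb1 and Clu. Thbs1 and F5, which encode thrombospondin 1 and coagulation factor V, were dim: Thbs1 lay at 8.03, 7.52 and 6.83 and F5 at 7.51, 7.24 and 6.49. Ccl5, Pdgfa and Sparc were detected on no array, whereas Pdgfb was moderate (10.67, 10.27 and 10.04). The genes that form and release granules were detected in 23 of 24 cases (95.8%), 11 of them abundant. Among these were Stxbp2 (12.98, 12.95 and 12.99), Vamp8 (12.60, 12.59 and 12.70) and Stx11, parts of the machinery that fuses granules with the membrane, and Slc35d3, needed for dense granules (12.23, 12.14 and 12.19). Slc18a2, a transporter of monoamines into granules, was lower on replicate 1 (7.63, 8.99 and 9.03). Lyst was the 1 undetected gene of the group.

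Signalling proteins of the platelet response were detected for 19 of 20 genes (95%), with Pla2g4a the exception. Rap1b, the small GTPase that leads to integrin activation, lay at 15.01, 14.86 and 14.90. Fermt3 and Tln1, which bind integrin tails, were abundant (13.37, 13.04 and 12.95 for Fermt3). The kinase Btk (13.49, 13.36 and 13.34), the phospholipase Plcg2 (12.68, 13.04 and 12.92) and thromboxane synthase Tbxas1 (12.89, 12.91 and 13.05) were abundant too. Stim1, the calcium sensor of the endoplasmic reticulum, had the largest range of the group (11.04, 10.23 and 9.82).

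**Figure D2:**
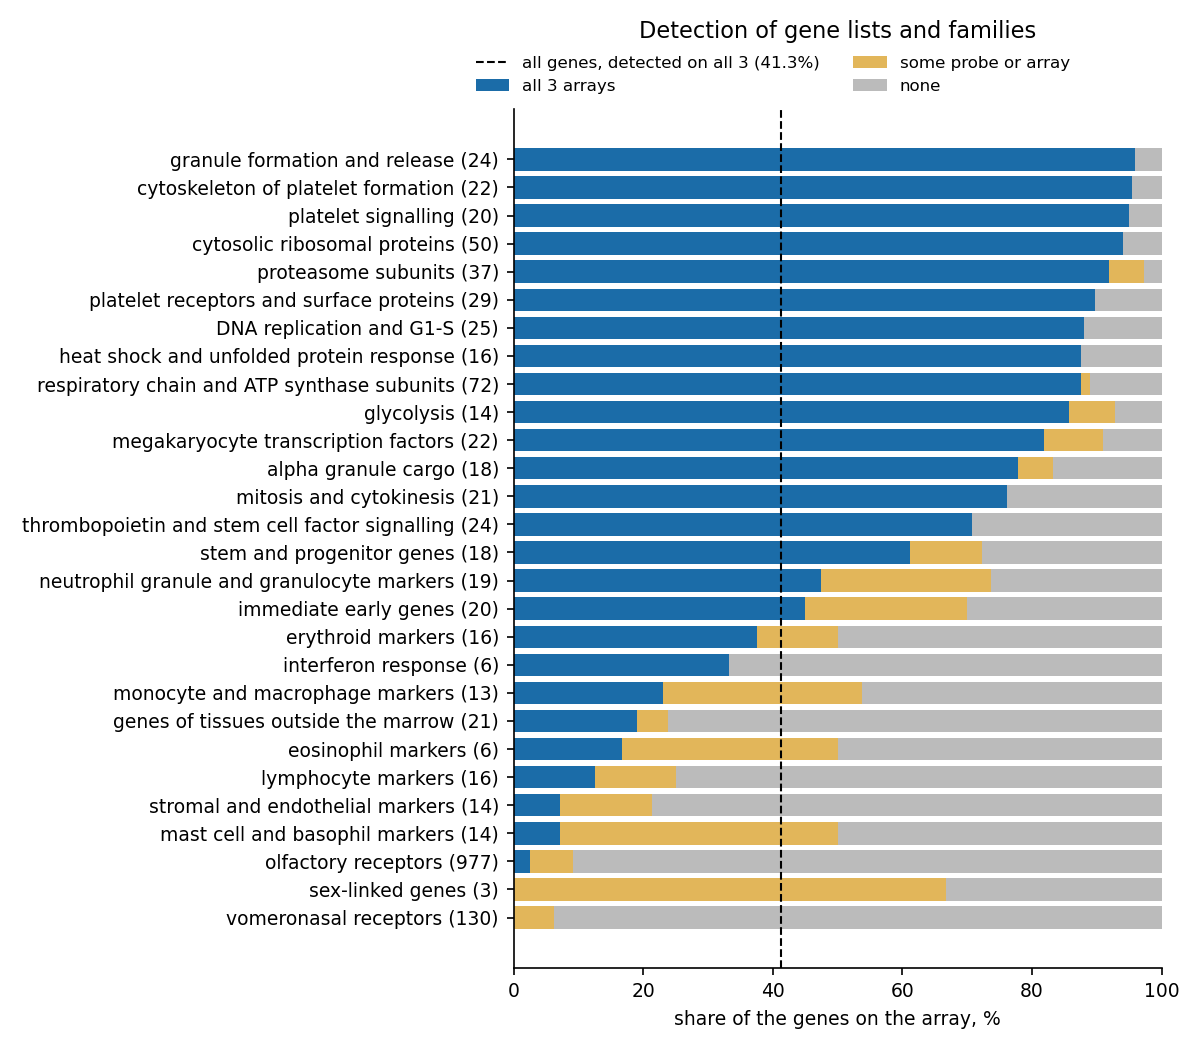
Share of each group's genes (percent, horizontal axis; number of genes on the array in parentheses) detected on all 3 wild-type arrays, in between, or on none. The dashed line is the 41.3% of all genes detected on all 3 arrays; platelet, translation and energy groups lie right of it, chemosensory receptors and markers of lymphocytes and stroma left of it.

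Of 22 transcription factors of the megakaryocyte programme, 18 (81.8%) were detected on all 3 arrays and 13 were abundant. Tal1 (13.95, 14.01 and 13.89) and its partners Lmo2 (14.24, 14.07 and 14.14) and Ldb1 (12.95, 13.07 and 13.22), which form a complex with GATA factors, were steady. Nfe2, needed for platelet release, lay at 13.40, 13.61 and 13.73, and its small partner Mafg was abundant. Gata2, the GATA factor of progenitors, was abundant (12.41, 12.84 and 12.82), and Gata1, that of maturing cells, was moderate (10.07, 10.20 and 9.80). Fli1, Runx1 and Etv6 were moderate, with Runx1 at 9.43, 9.51 and 9.43. Srf, serum response factor, is not deleted in these cells, by their label, and was abundant (12.31, 11.89 and 11.98). Erg and Ets1 were detected on no array. Myb, which is active in early progenitors, was undetected on replicate 1 and low on the others (5.45, 6.53 and 6.80). Its second probe was detected on no array (6.07, 5.78 and 5.66).

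Genes of thrombopoietin and stem cell factor signalling were detected for 17 of 24 (70.8%), and 6 were abundant. The kinase Jak2 was moderate (10.69, 10.62 and 10.40). Of its targets, Stat3 was abundant (11.27, 11.63 and 11.41) and Stat5a moderate, whereas Stat5b was undetected. The feedback inhibitors Socs2 (11.59, 10.93 and 10.87), Socs3 (11.36, 10.90 and 10.74), Cish (10.81, 10.75 and 10.46) and Socs1 were all detected. The adaptor Grb2 lay at 11.75, 12.10 and 12.37. A pair of survival genes that cytokines are known to induce was at least 1 higher on replicate 1 than on both other arrays, as were 1.73% of genes detected on at least 1 array: Bcl2l1, an inhibitor of cell death (10.45, 9.02 and 8.87), and the kinase Pim1 (10.26, 8.76 and 9.0). Csf2rb, a shared chain of cytokine receptors outside this group, differed on all 3 arrays (9.71, 8.03 and 6.76). Akt1, Cbl, Gab2, Pik3r1, Shc1, Sos1 and Stat5b were detected on no array.

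The cytoskeleton that platelets are built from was detected for 21 of 22 genes (95.5%), with 19 abundant and a median of 13.13. Actb, beta-actin, had the highest mean signal of any gene with a name (15.57, 15.54 and 15.60). Zyx, a protein of focal adhesions, lay at 15.08, 15.26 and 15.34. Myh9, the heavy chain of non-muscle myosin, lay at 14.80, 14.71 and 14.75. Coro1a, which binds actin filaments in blood cells, varied least in the group (14.49, 14.51 and 14.49). Tuba8, an alpha-tubulin, and Tpm4, a tropomyosin, were abundant (13.80, 13.57 and 13.56 for Tuba8). Was, an activator of actin branching, had the largest range (13.23, 12.56 and 12.23). The exception was Tmsb4x, the actin-binding peptide thymosin beta 4, undetected on its only probe (5.15, 4.95 and 4.84).

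Stem and progenitor genes were detected less completely, with 11 of 18 (61.1%) on all 3 arrays and a median of 7.76. Gata2 and Meis1 were abundant. Cd34 was moderate (8.69, 8.85 and 8.99), and Slamf1, the surface protein CD150, was higher on replicate 1 (10.32, 9.09 and 9.23). Flt3, Hlf, Mecom, Procr and Thy1, genes of earlier stem and multipotent cells, were detected on no array.

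Cell cycle genes were detected for the most part. Of 21 mitosis and cytokinesis genes, 16 (76.2%) were detected on all 3 and 12 were abundant. Prc1, a microtubule bundler of the central spindle, lay at 12.84, 12.73 and 12.90. The mitotic kinase Plk1 lay at 12.04, 12.57 and 12.72, while another probe of it was detected on no array (4.95, 5.04 and 4.96). Aurkb, the kinase of the chromosomal passenger complex, lay at 11.48, 11.13 and 11.02. Birc5, survivin, of the same complex, lay at 12.48, 12.37 and 12.45. Ect2, the activator of the contractile ring, was undetected (5.18, 4.90 and 4.80), as were Bub1, Ccnb2, Cenpe and Kif11. Racgap1, the partner of Ect2, was dim (6.82, 7.10 and 6.07), with a detection p of 0.0499 on replicate 3, just under the limit. Another Racgap1 probe was detected on no array (5.09, 5.09 and 4.98). Of 25 genes of DNA replication and entry into S phase, 22 (88.0%) were detected and 13 were abundant. Mcm4, a subunit of the replicative helicase, was among the 10 abundant genes with the smallest SD (13.28, 13.28 and 13.30). Another Mcm4 probe was detected on no array (5.54, 5.45 and 5.16). Mcm5, Mcm6, Mcm7 and Mcm2 were abundant as well. The D-type cyclins Ccnd1 (12.02, 12.20 and 12.14) and Ccnd2 (12.26, 11.76 and 11.77) were abundant, while the E-type cyclins Ccne1 (8.61, 8.38 and 8.14) and Ccne2 (8.04, 8.19 and 8.55) were moderate.

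Genes of translation and energy metabolism were bright. Of the 15 named genes with the highest mean, 6 encode cytosolic ribosomal proteins: Rps9, Rpl23, Rpl37, Rps21, Rpl35 and Rpl13. Over the family, 47 of 50 genes (94%) were detected, 38 were abundant and the median was 14.65. Rpl17, Rpl39l and Rpl3l were undetected, the last pair being paralogs with restricted expression. Subunits of the respiratory chain and ATP synthase were detected for 63 of 72 genes (87.5%), with a median of 12.20. Atp5b, the catalytic beta subunit of ATP synthase, lay at 15.16, 15.18 and 15.13. Ndufb10, of complex I, was higher on replicate 1 (10.61, 7.81 and 7.72). Undetected were the muscle or testis forms Cox6a2, Cox7b2, Cox8b and Cox8c, and also Ndufs1, Sdha, Uqcrfs1 and Uqcrq, which respiration uses in most cells. Proteasome subunits were detected for 34 of 37 genes (91.9%). Of 14 glycolytic genes, 12 (85.7%) were detected, with Gapdh at 15.60, 15.60 and 15.41, the lactate dehydrogenase Ldha at 15.13, 14.99 and 14.87 and the glucose transporter Slc2a3 at 14.55, 14.67 and 14.55.

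Chaperone and stress genes were mostly detected, and interferon genes mostly not. Of 16 heat shock and unfolded protein genes, 14 (87.5%) were detected, with Hspd1, the mitochondrial chaperonin, at 13.92, 13.58 and 13.80 and Xbp1, a factor of the unfolded protein response, at 13.15, 13.08 and 13.30. Of 6 interferon response genes, 2 (33.3%) were detected, Rsad2 at 7.77, 7.80 and 7.90 and Irf7 at a dim level, and Ifit1, Ifit3, Mx1 and Oasl2 were not. Immediate early genes, which respond within minutes to growth signals, were detected on all 3 arrays for 9 of 20 (45.0%), close to the share of all genes. Egr1, a zinc finger factor of this kind, was at least 1 lower on replicate 1 (9.89, 12.13 and 12.38), and so was Fos (5.05, 7.23 and 7.39), which was undetected there. Atf3, a factor of stress responses, was at least 1 lower on replicate 3 than on both other arrays (7.70, 7.02 and 5.65). Klf6 (11.41, 11.21 and 11.09) and Ier3 were abundant. Btg2, Egr2, Fosb, Ier5, Klf4 and Nr4a1 were detected on no array.

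Genes of unrelated cell types gave a measure of what undetected means. Olfactory receptors, which are known for their expression in nasal neurons, were detected on all 3 arrays for 25 of 977 genes (2.56%), none of them abundant, and on none for 887 (90.8%). Vomeronasal receptors were detected on all 3 arrays for 0 of 130 genes, which allows a share of up to 2.31%, a bound for counting error only. Among 21 genes of liver, brain, muscle, germ cells, pancreas, kidney and lung, 16 (76.2%) were detected on no array, with Alb, albumin, at 5.01, 5.17 and 4.91 and Gfap, of astrocytes, at 5.11, 5.07 and 5.12. The 4 detected on all arrays were Cela1 (10.53, 10.93 and 10.71), Apoa1, Ins2 and Prm2. Lack of signal on a probe does not show that a transcript was absent. Of 3728 genes with several probes, 1027 had at least 1 probe detected on all 3 arrays and another detected on none. For Actb, 3 probes were abundant and the fourth lay at 5.85, 7.02 and 6.07, and for Myh9 a second probe lay at 5.08, 5.52 and 5.18.

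Markers of lymphocytes and of stromal and endothelial cells were largely at background. Lymphocyte markers were undetected for 12 of 16 genes (75%), against 49.3% of all genes. Among them were Cd3e, Cd3d, Cd4, Cd79a and Ms4a1, and the mean level of the 16 markers was 5.68, 5.83 and 5.94. Detected on all 3 arrays were Cd79b (8.12, 8.73 and 8.11) and Nkg7, a granule protein of cytotoxic cells, which was lower on replicate 1 (7.34, 10.84 and 10.92). Stromal and endothelial markers were undetected for 11 of 14 genes (78.6%, against the same 49.3%), including the collagens Col1a1, Col1a2 and Col3a1. The mean of the 14 markers was 5.70, 5.49 and 5.59. Tie1, a receptor of endothelium, was dim (8.32, 7.68 and 7.15).

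Granule genes of neutrophil precursors had the 3 largest ranges of all genes. Mpo, myeloperoxidase, was detected on all 3 arrays at 7.64, 14.74 and 14.93, and its other 2 probes gave 7.32, 14.36 and 14.59 and 6.36, 11.63 and 11.66. Elane, neutrophil elastase, lay at 5.84, 12.48 and 12.99 and was not detected on replicate 1. Ctsg, cathepsin G, lay at 6.40, 13.14 and 13.41, and Prtn3, proteinase 3, at 8.50, 11.47 and 11.70. On each of these genes replicate 1 was far below replicates 2 and 3, which were close together. Of 14 markers detected on at least 1 array, 10 were lower by 1 or more on replicate 1 than on both other arrays, against 3.15% of genes, and none was higher. The mean over all 19 markers was 6.45, 8.30 and 8.47. Without replicate 1, 13 of the 19 markers were detected on both arrays, against 9 on all 3. Lcn2, a protein of secondary granules, was among the 10 (5.35, 7.74 and 7.87), and so were S100a8 and S100a9, calcium-binding proteins of mature neutrophils (S100a8 at 9.37, 10.87 and 11.20). Camp and Ngp, also of secondary granules, were level over the arrays, with Camp at 7.68, 8.03 and 7.88 and Ngp at 6.33, 6.44 and 6.48. Cd177, Itgam, Mmp8, Mmp9 and Retnlg were detected on no array. Because Mpo and Ctsg were bright on a pair of arrays, their means placed them in the abundant class, which does not describe replicate 1.

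Mast cell and basophil genes split the same way. Cpa3, carboxypeptidase A3, lay at 6.62, 12.64 and 12.88, and the basophil proteases Mcpt8 and Prss34 at 5.49, 11.45 and 11.97 and at 5.30, 10.49 and 10.86. Fcer1a, the IgE-binding chain of the high-affinity IgE receptor, lay at 5.10, 7.64 and 7.82. All 7 markers detected on any array were at least 1 lower on replicate 1, and 6 of them were undetected there. The other 7 were undetected on every array, namely Cma1, Mcpt1, Mcpt2, Mcpt4, Tpsab1, Tpsb2 and Il4, which include the tryptases and chymases of mature mast cells. The number of the 14 markers detected on all arrays was 1, and without replicate 1 it was 7. Their mean was 5.45, 7.37 and 7.49. Of 6 eosinophil markers 1 was detected on all arrays. This was Prg2, major basic protein of eosinophils, at 6.32, 11.30 and 11.57, while Epx, Ccr3 and Siglecf, which define mature eosinophils, were undetected.

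**Figure D3:**
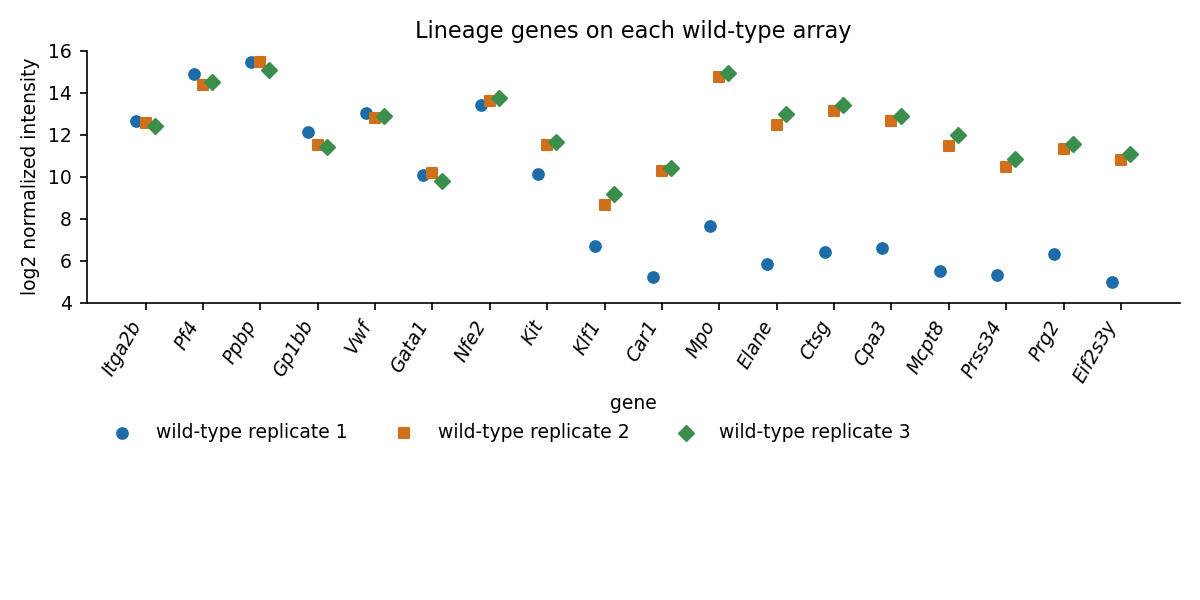
Log2 normalized intensity (vertical axis) of 18 genes on each of the 3 wild-type arrays, 1 symbol per array. From Itga2b to Nfe2 the arrays lie together, and from Kit to Eif2s3y replicate 1 (circles) lies below replicates 2 and 3. The genes are a selection, and not every gene of their groups follows this split. Of genes not shown, erythroid Epor (8.52, 8.23 and 7.98) and macrophage Mrc1 (9.40, 8.64 and 8.12) were highest on replicate 1. Slc18a2, of granule formation, was lower there (7.63, 8.99 and 9.03).

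Of 16 erythroid markers, 6 (37.5%) were detected on all arrays and 8 (50%) on none, close to the 41.3% and 49.3% of all genes. Their mean was 6.81, 7.54 and 7.6. Tfrc, the transferrin receptor, was abundant on every array (12.42, 12.68 and 12.64). Klf1, the erythroid transcription factor, lay at 6.70, 8.64 and 9.20, and Car1, carbonic anhydrase 1, at 5.21, 10.26 and 10.40 with no detection on replicate 1. Aqp1, a water channel of red cells, lay at 8.40, 10.18 and 10.30. These last 3 genes were at least 1 lower on replicate 1, out of 8 detected on any array, against 3.15% of genes. Car2 (10.14, 10.98 and 10.89) and Hemgn (9.38, 9.84 and 9.75) were lower there by less than 1. Epor, the erythropoietin receptor, was highest there (8.52, 8.23 and 7.98). Alpha-globin Hba-a1 (5.51, 5.52 and 5.55), the heme enzyme Alas2, the band 3 gene Slc4a1 and Epb42, Ermap, Rhag, Rhd and Trim10 were detected on no array. Of 13 monocyte and macrophage markers, 3 were detected on all arrays, and 6 without replicate 1. The 3 were Lyz2 (10.97, 11.29 and 11.41), Mrc1 (9.40, 8.64 and 8.12) and Spi1. Adgre1, a surface receptor of macrophages, lay at 5.23, 7.62 and 8.38, with a second probe detected on no array (4.94, 5.19 and 5.25). C1qb, C1qc, Cd14, Ccr2, Cx3cr1 and Lyz1 were undetected.

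Y-linked genes differed between the arrays as well. Eif2s3y, a Y-linked translation factor, lay at 4.98, 10.81 and 11.10, undetected on replicate 1 and bright on the others. Kdm5d, a Y-linked histone demethylase, lay at 5.38, 7.15 and 7.30, and Uty was detected on no array. The labels give no sex for the animals. The part of these marker genes and Y-linked genes in the other differences of replicate 1 was not tested.

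Across all probes, replicates 2 and 3 were the most alike. The correlation of log2 levels over the 8917 probes detected on all arrays, a description across probes that share their bead design, was 0.970 between replicates 1 and 2, 0.962 between 1 and 3 and 0.989 between 2 and 3. Probes detected on at least 1 array of a pair differed by 1 or more for 756 of 10858 (6.96%) between replicates 1 and 2. Between replicates 1 and 3 this was 1126 of 10744 (10.5%), and between 2 and 3 it was 312 of 10852 (2.88%). With both arrays at a detection p under 0.01, the numbers were 231, 311 and 17. By gene, replicate 1 was lower than both others for 255 of 8090 (3.15%) and higher for 140 (1.73%). The same counts were 17 (0.210%) and 18 (0.222%) for replicate 2, and 23 (0.284%) and 58 (0.717%) for replicate 3.

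Outside the marker groups, the genes with the largest ranges were again low on replicate 1. They included Ly6c1, a surface antigen of myeloid cells (6.25, 12.05 and 12.46), Gstm1, a glutathione transferase (5.45, 10.34 and 10.90), the chemokine Ccl9 (6.15, 10.89 and 10.87), Gm2a (5.78, 10.26 and 10.49), haptoglobin Hp (5.71, 9.83 and 10.12) and Tyrobp, an adaptor of myeloid receptors (5.23, 8.53 and 9.26). A second Gstm1 probe was detected on no array (6.08, 5.43 and 4.86). Another pair of genes did not follow the pattern of low values on replicate 1. Psmc1, a proteasome ATPase, was undetected on replicate 2 alone (10.99, 5.12 and 10.51), and Fbxw5, a substrate adaptor of a ubiquitin ligase, differed on every array (8.25, 6.42 and 11.31). No platelet receptor, alpha granule, platelet signalling or cytoskeleton gene differed by 1 or more on any array from both others, among 26, 15, 19 and 21 members detected on at least 1 array. Over all genes, replicate 1 was lower for 3.15% and higher for 1.73%, and the other arrays reached at most 0.717% in either direction. These shares were not matched for brightness: a range of 1 or more was seen for 1.93% of abundant and 12.8% of dim probes. Some genes of these groups did range by 1 or more between the highest and lowest array. Among them were Stim1 (range 1.22), Thbs1 (1.20), Vegfa (1.03), F5 (1.02) and Was (1.01). Genes that lay 1 or more from both other arrays were found in other groups of this lineage. They were Slc18a2 among 23 granule formation and release genes and Myb among 20 transcription factors. Among 17 genes of thrombopoietin and stem cell factor signalling they were Bcl2l1, Kit and Pim1.

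**Figure D4:**
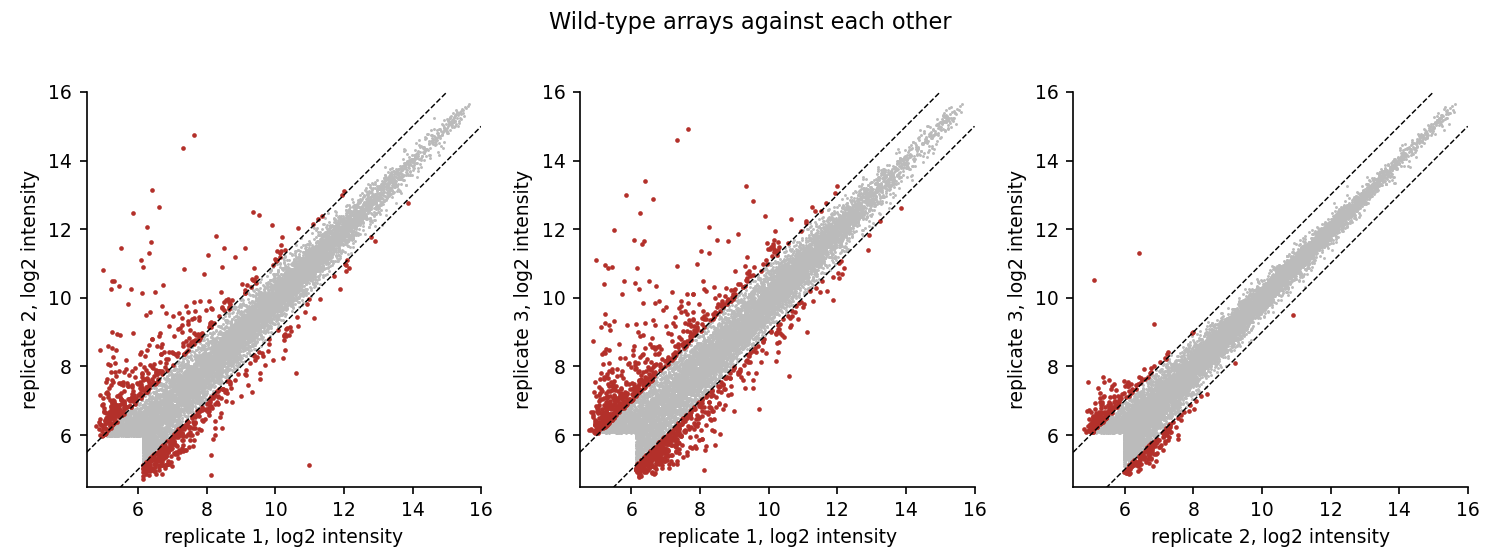
Log2 normalized intensity of each probe on 1 wild-type array against another, for probes detected on at least 1 array of the pair. Dashed lines mark a difference of 1, and red points lie on or beyond them: 756 for replicates 1 and 2, 1126 for 1 and 3, and 312 for 2 and 3.

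At the other end were genes whose brightest probe barely moved. The 10 abundant genes with the smallest SD included Etfa, an electron carrier of fatty acid oxidation (13.22, 13.23 and 13.23), Dctn2, a dynactin subunit (12.66, 12.67 and 12.67), Tagln2, an actin-binding protein (13.58, 13.59 and 13.58), and Gnb1, a G protein beta subunit (11.95, 11.94 and 11.96). Other probes of these genes can move more: those of Etfa lay at 12.56, 12.34 and 12.34 and at 10.70, 10.46 and 10.35. Quantile normalization gives every array the same set of values, so that these levels reflect the rank of a probe on its array.

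Promoter sequence, which played no part in the classes, differed between them. RefSeq promoters (mouse assembly GRCm38.p6, 250 bases before to 50 after the start, the first listed for each gene) were found for 12847 of the 15967 genes. The ratio of CpG dinucleotides observed to those expected from base composition had a median of 0.821 in abundant genes, 0.791 in moderate, 0.728 in dim and 0.381 in undetected genes. A ratio of 0.6 or more was met by 81.1% of abundant and 34.5% of undetected promoters, or 40.0% of undetected ones with chemosensory receptors left out. Of the 4 defining markers, all of them abundant, none reached 0.6. Of the receptor genes 8 of 24 did, and of the alpha granule genes 3 of 12. All 18 mitosis genes and 38 of 40 ribosomal protein genes did. Of the neutrophil markers 1 of 18 reached it, and of the mast cell and basophil markers 0 of 11. Promoters are shown for 2 defining markers, for 2 genes that set replicate 1 apart and for 2 genes whose brightest probe was level. They run 5′ to 3′ on the strand of the gene, with each cg in capitals.
Pf4, chr5:90772185-90772484, plus strand: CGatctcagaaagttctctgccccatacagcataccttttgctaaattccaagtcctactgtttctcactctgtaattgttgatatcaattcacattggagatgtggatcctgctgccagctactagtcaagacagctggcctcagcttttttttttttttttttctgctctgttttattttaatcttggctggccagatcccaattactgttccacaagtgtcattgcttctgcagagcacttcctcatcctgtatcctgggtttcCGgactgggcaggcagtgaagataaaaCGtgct
Itga2b, chr11:102469834-102470133, minus strand: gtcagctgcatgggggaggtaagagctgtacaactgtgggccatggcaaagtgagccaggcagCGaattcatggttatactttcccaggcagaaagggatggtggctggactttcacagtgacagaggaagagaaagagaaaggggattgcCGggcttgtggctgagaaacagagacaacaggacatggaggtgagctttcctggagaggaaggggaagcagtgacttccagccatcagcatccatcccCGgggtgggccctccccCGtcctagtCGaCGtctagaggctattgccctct
Mpo, chr11:87793534-87793833, plus strand: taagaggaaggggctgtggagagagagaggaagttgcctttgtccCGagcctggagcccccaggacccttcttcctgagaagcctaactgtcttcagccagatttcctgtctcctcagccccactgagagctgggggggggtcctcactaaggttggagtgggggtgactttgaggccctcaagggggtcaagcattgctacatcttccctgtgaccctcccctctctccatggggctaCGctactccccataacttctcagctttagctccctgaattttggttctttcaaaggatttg
Cpa3, chr3:20242132-20242431, minus strand: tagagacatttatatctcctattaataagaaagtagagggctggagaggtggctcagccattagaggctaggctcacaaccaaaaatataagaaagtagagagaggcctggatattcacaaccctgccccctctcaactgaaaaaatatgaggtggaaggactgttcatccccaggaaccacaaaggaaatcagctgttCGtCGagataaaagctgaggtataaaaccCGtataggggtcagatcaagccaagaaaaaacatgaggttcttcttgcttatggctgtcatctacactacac
Etfa, chr9:55512194-55512493, minus strand: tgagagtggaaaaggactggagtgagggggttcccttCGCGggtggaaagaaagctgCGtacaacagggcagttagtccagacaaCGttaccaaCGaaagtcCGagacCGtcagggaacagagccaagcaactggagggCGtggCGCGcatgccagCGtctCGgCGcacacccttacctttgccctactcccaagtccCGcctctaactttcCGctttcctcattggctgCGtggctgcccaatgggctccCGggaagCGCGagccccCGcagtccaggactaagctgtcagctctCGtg
Gnb1, chr4:155491111-155491410, plus strand: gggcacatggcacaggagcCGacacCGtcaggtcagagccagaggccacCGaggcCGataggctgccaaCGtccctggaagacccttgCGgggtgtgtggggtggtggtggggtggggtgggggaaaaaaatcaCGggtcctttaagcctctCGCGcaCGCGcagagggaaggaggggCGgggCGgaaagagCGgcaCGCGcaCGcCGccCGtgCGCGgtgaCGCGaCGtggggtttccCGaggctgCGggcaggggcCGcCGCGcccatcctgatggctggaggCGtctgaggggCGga
These hold 3, 6, 2, 3, 21 and 31 CpG dinucleotides, at ratios of 0.217, 0.266, 0.087, 0.213, 0.769 and 0.883.

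**Figure D5:**
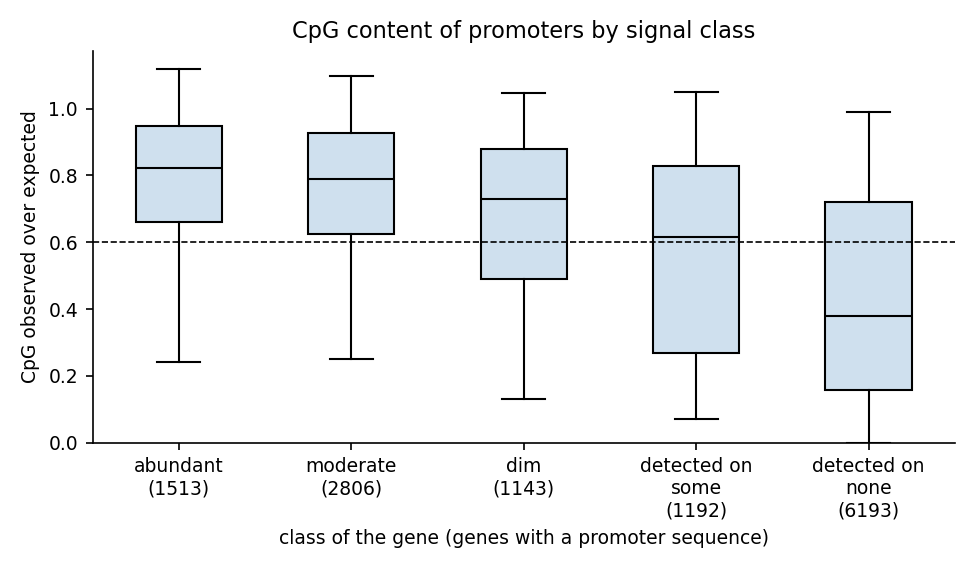
Ratio of observed to expected CpG in RefSeq promoters (vertical axis) by class of the gene, with the number of genes in parentheses. Boxes span the quartiles with the median as a line, whiskers run from the 5th to the 95th percentile, and the dashed line marks 0.6; the median goes from 0.821 in abundant to 0.381 in undetected genes.

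The GATA motif was searched as AGATAA on both strands, the letters that GATA factors are known to bind. It occurred in 9.43% of the promoters of all genes on the array and in 11.4% of all promoters of the table. The share was 6.68% in abundant and 12.3% in undetected genes. The motif is rich in A and T, and the median GC content was 61.0% in abundant and 53.7% in undetected promoters. TATAAA, also rich in A and T, went the same way, at 7.5% and 17.6%. The part of base composition in the motif shares was not tested. Of the receptor genes 7 of 24 held AGATAA, namely Clec1b, F2rl2, F2rl3, Gp5, Gp6, Mpig6b and P2rx1. Among the erythroid genes it was found in 6 of 12, and among the mast cell and basophil genes in 5 of 11, with Cpa3, Fcer1a and Prss34 among them. It was also found in 4 of 16 genes of tissues outside the marrow, and in 1 of 18 megakaryocyte transcription factors, which was Tal1. Pf4 held it and Itga2b did not. The ETS-type motif CCGGAA, also on both strands, holds a CG itself and shares no run of 3 letters with AGATAA. It occurred in 20.8% of promoters of all genes, 35.6% of abundant and 11.5% of undetected ones. A match in this window is a description of the sequence and not a binding site.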

How the data were processed

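RNA of 6 cultures was hybridized to mouse Illumina bead arrays, and the 3 arrays labelled SRF wild-type are described. Per the file headers, the deposited table gives for each probe and array a raw intensity, its standard error over the beads, the bead count and a detection p-value against negative control beads. The authors' processed values are on a log2-like scale with equal sorted values in each column, a median of 8.22 and a lowest value of 7.80. BeadStudio 3.2 and lumi are named in the submitters' processing notes without roles. After each probe's mean was removed, every wild-type processed column correlated best with its own raw column, at 0.932 to 0.969, while other columns reached 0.544.

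The neqc function of limma 3.58.1 (R 4.3.3) was run on the raw intensities of all 6 arrays: it took the background from the detection p-values, added an offset of 16, made the quantiles equal and took log2. Classes and counts were computed in Python 3.11.15, and the procedure was tested on simulated data. No test was run, since 1 group holds no contrast. Arrays were not grouped by outcome, and their number limits the precision. Of 24611 probes, 20983 had 1 symbol, 1 several and 3627 none. A gene's level is that of its probe with the highest mean.

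The 24 gene lists and 5 families were chosen with earlier results of these data known. The arrays described were chosen by their genotype label alone, though also with those results known. Named genes were the 4 markers, the 15 brightest, per list the 5 brightest, up to 5 undetected and the 3 with the largest range, the 20 with the largest range of all and the 10 abundant genes with the smallest SD. Further members were named for their role after their values were seen. Alternatives were another background correction, scaling, filter or detection threshold, the processed values, and leaving out each array.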

Additional observations from a re-analysis of the deposited data

How the results depend on the processing

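The counts of detected probes and genes stayed within 1.5 times under each alternative. Probes detected on all arrays numbered 7623 at a detection p under 0.01 and 9043 to 9437 with 1 array left out. Probes detected on none numbered 15477 at that threshold and 13753 to 13867 with 1 array left out. Detected genes ranged from 5280, where every probe of a gene had to pass, to 6964 without replicate 1. Of the 2229 abundant probes, 2223 to 2228 were shared under the other corrections, scalings and the processed values, and 2203 to 2209 with 1 array left out. The number of probes that differ by 1 or more depended on the scale. For replicates 1 and 2, 1 and 3, and 2 and 3 it was 280, 414 and 43 with normexp at offset 50, 157, 224 and 5 without background correction, 89, 135 and 4 with the authors' processed values, and 231, 311 and 17 with detection p under 0.01 on both arrays. In the first 3 of these settings the floor is higher, which shrinks differences of dim probes by construction. The order of the 3 pairs was the same in each. Of 29 lists and families, 5 changed their count of detected members by over 1.5 times at detection p under 0.01 and 5 without replicate 1, 1 without replicate 3 and 0 without replicate 2. Of the 4 defining markers, Itga2b moved by more than its SD in 1 setting, from a mean of 12.55 to 12.43 with neqc on the 3 arrays alone. No paired analysis was possible because only 1 group is described, so that no replicate number pairs arrays across groups.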

Other observations

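A few genes were highest on replicate 2, and those given here were chosen after their values were seen. Egln3, an oxygen-sensing hydroxylase, lay at 8.44, 10.90 and 9.50 on replicates 1, 2 and 3. Ankrd37 lay at 6.98, 8.41 and 7.20, and the adenylate kinase Ak4 at 5.28, 7.54 and 6.51. In each of these 3 genes replicate 2 was at least 1 above both other arrays, which 18 of 8090 genes were.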
